A study of Mus musculus with 16 samples.

Results

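The 10 genes described here are used as markers of stem and progenitor cells in pancreatic cancer: Lgr4, Lgr5, Klf5, Sox9, Prom1, Cd44, Aldh1a1, Dclk1, Cxcr4 and Cd24a. They were taken by gene name and gene identifier from the 54532 genes listed in the deposited tables, and all 10 were found in both. The cells were KPC1199, a mouse pancreatic cancer line of the KPC type, named for a genetic mouse model of this cancer. Each RNA came from such cells after growth as an orthotopic tumour, that is, a tumour implanted into the pancreas. Values were available for 4 groups of 2 libraries each, labelled as cells sorted from tumours: Ly6d overexpression, WT for Ly6d, high Ly6d expression and low Ly6d expression. The sort marker, the vector, the age and strain of the host mice, and whether the replicates came from separate tumours are not given in the sources used here, so p-values measure the spread between these libraries, which may be technical. The study asked what Ly6d, a small protein anchored to the outer cell membrane, does in pancreatic cancer at its onset and later.

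The WT columns match titles of sorted samples, but the same short name also occurs in titles of whole tumours. The overexpression columns are named as tumours with overexpression are in the titles. They were placed among the sorted cells because their counts were deposited together with those of the WT columns. Whether the overexpression libraries came from sorted cells or from whole tumours is thus not settled. The part of this in the differences from WT was not tested. Totals were 18290325 and 18001470 counts in overexpression libraries, against 18108850 and 15449241 in WT libraries. Reads recovered from the TPM values totalled 20509539 and 18362419 in Ly6d-high libraries, against 15063975 and 19322028 in Ly6d-low libraries. Ly6d was at 3380 and 3423 CPM (counts scaled to the library total) in overexpression and at 1260 and 1066 CPM in WT libraries. It was at 697 and 504 TPM (reads scaled to gene length and library) in Ly6d-high cells, against 1.56 and 0.352 TPM in Ly6d-low cells, which is what the sort selected for. None of the 10 tumour epithelium markers, among them Epcam, Cdh1 and the keratins Krt8, Krt18 and Krt19, was at 0 in all libraries of any group. They summed to 13499.7 and 14180.0 CPM in overexpression libraries, against 13082 and 12736 CPM in WT libraries. Their sum was 41483 and 41230 TPM in Ly6d-high libraries, against 57259 and 58497 TPM in Ly6d-low libraries, with 2 of 10 called higher and 4 lower and a median of -0.33 relative to all genes. The part of this shift in the Ly6d-high results was not tested. Markers of other cell types were present too. In such bulk libraries, a change in the number of cells of a type and a change in RNA per cell cannot be told apart.

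Tumour cells able to seed and renew a tumour are often sought with marker genes borrowed from normal stem cells. Lgr4 and Lgr5 are receptors for R-spondins, which strengthen Wnt signals by removing the ubiquitin ligases Rnf43 and Znrf3 from the cell surface, and Lgr5 marks stem cells of the gut. Sox9 and Klf5 are transcription factors of duct and progenitor epithelium, and both are active in pancreatic tumours that arise from acinar cells. Prom1 (CD133), Cd44 and Cd24a are surface proteins used to sort tumour-initiating cells, Aldh1a1 oxidises retinaldehyde and is read in the ALDH activity test, Dclk1 is a kinase of tuft cells, and Cxcr4 is the receptor for the chemokine Cxcl12.

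Promoter sequence is shown for 4 of the 6 markers that passed the test in either comparison, as the DNA next to the genes that changed. The other called markers are Lgr5 and Klf5. RefSeq promoter entries (build GRCm38.p6) matched 6 of the 10 markers, with 9 starts in all. The 150 bases before the start are printed for Lgr4, Cxcr4, Dclk1 and Aldh1a1, 5′ to 3′ on the strand of the gene. Capitals mark matches on either strand to 5 motifs. The box bound by Kruppel-like factors was searched as CACCC. For the GC box, which other zinc finger factors bind, the letters searched were GGGCGG. The core bound by SOX factors such as Sox9 was searched as ACAAT. For the TCF/LEF core, through which Wnt signals reach genes, the letters searched were CTTTGA. The TATA box, found near the start of some genes, was searched as TATAAA.
Lgr4, chr2:109917497-109917646, plus strand: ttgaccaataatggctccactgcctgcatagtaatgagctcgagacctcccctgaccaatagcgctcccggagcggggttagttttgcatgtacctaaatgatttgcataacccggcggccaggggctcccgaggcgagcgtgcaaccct
Cxcr4, chr1:128592300-128592449, minus strand: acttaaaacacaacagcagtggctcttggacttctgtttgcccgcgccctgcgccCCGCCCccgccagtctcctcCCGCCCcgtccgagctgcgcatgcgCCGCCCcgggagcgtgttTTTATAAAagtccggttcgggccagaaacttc
Dclk1, first start, chr3:55242214-55242363, plus strand: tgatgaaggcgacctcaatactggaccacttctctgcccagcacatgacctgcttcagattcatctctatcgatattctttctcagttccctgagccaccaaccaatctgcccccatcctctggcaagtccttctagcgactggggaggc
Dclk1, internal start, chr3:55461578-55461727, plus strand: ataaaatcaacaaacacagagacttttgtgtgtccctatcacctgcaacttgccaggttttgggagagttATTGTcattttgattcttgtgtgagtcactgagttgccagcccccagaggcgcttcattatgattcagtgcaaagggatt
Aldh1a1, first start, chr19:20492433-20492582, plus strand: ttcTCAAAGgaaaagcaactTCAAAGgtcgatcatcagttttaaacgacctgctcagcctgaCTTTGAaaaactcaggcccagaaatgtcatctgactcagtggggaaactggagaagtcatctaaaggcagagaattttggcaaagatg
Aldh1a1, internal start, chr19:20601818-20601967, plus strand: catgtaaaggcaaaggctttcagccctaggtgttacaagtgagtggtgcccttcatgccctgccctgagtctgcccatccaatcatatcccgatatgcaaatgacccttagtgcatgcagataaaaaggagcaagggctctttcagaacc
The Cxcr4 window held 15 CpG pairs and 63.3% G or C, against medians of 4 CpG pairs and 54% over 32851 windows of the same length. It held 3 GC boxes, and 28.6% of all windows had at least 1. It also held 2 TATA boxes on opposite strands that overlap each other, between bases -32 and -25, where 7.57% of windows had one. The window of the first Aldh1a1 start held 3 TCF/LEF cores, where 7.93% of windows had one, and that of the internal Dclk1 start held 1 SOX core, where 17.4% had one. The Lgr4 window, the first Dclk1 start and the internal Aldh1a1 start held none of the 5 motifs. The deposited values are per gene, so transcripts from the first and the internal starts of Dclk1 and Aldh1a1 were not separated. A match is a description of the letters, and no binding was measured.

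The first comparison asked which of these markers changed with Ly6d overexpression. Lgr4, Lgr5, Klf5 and Cxcr4 were higher in overexpression than in WT libraries, and none of the 10 was lower. The rises of Lgr4, Lgr5 and Klf5 lay between 1.30-fold and 1.46-fold in mean CPM, while Cxcr4 was 5.52-fold higher from a low level. Sox9, Cd44, Prom1, Cd24a, Aldh1a1 and Dclk1 did not pass the test. At an adjusted p under 0.05 in edgeR's quasi-likelihood test, 4 of the 10 were called higher and 0 lower. Of the 15771 genes tested, 2.32% were called higher and 1.84% lower, 4.16% in all. Counts called in the lists of this comparison are to be read against these shares. At an unadjusted p under 0.05, the same 4 markers were higher and Prom1 was lower, where 9.05% of genes were higher and 8.24% lower. The median log2 fold change was 0.07 over the 10 markers and -0.0012 over all genes tested.

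**Figure D1:**
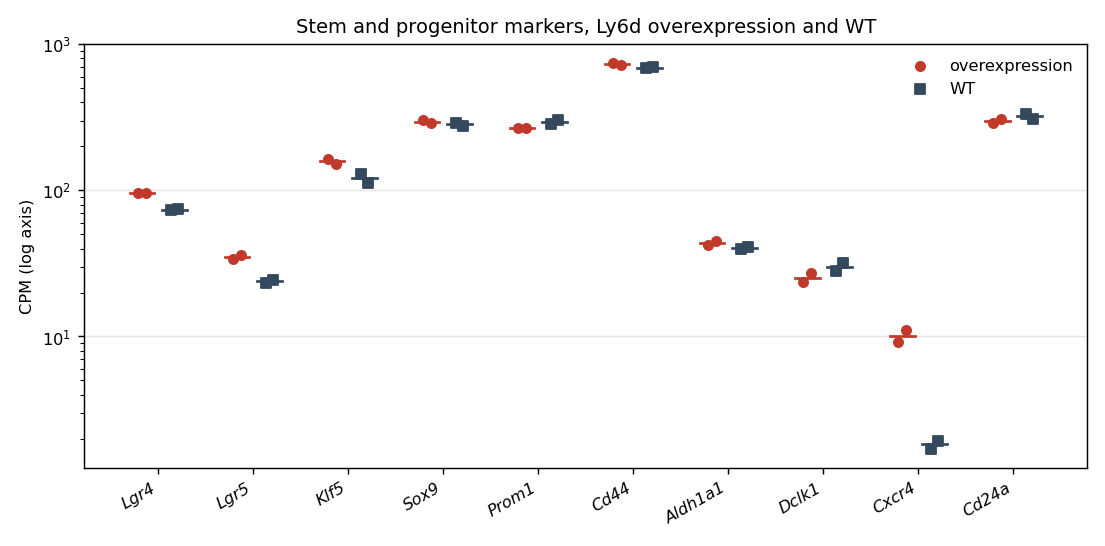
CPM of the 10 markers (log axis) in each of 2 overexpression libraries (circles) and 2 WT libraries (squares), with bars at the group means. Libraries of both groups overlap for Sox9 and Cd24a and lie apart for the other 8 markers, beside 48% of all genes tested.

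Both R-spondin receptors were higher. Lgr4 (ENSMUSG00000050199, GRCm38 chromosome 2, 109917647 to 110014257) was at 96.4 and 95.7 CPM in overexpression libraries, against 73.7 and 74.1 CPM in WT libraries. The groups were well separated, and replicates of each group differed by less than 1 CPM. The log2 fold change was 0.36 ± 0.08 (SE; edgeR quasi-likelihood adjusted p = 0.0306), and the call was lost when either WT library was left out, with an adjusted p of 0.150 for replicate 1 and 0.0883 for replicate 2. Lgr5 (ENSMUSG00000020140, chromosome 10, 115450311 to 115587780) was at 33.7 and 36.0 CPM in overexpression libraries, against 23.3 and 24.4 CPM in WT libraries. Each overexpression library lay above both WT libraries. Its log2 fold change of 0.53 ± 0.13 passed narrowly (adjusted p = 0.0464). That call was lost with DESeq2 (adjusted p = 0.0507), without overexpression replicate 2 (0.0523), without WT replicate 1 (0.279), without WT replicate 2 (0.138) and after marker genes of other cell types were taken out of the fit (0.0571).

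Of the transcription factors, Klf5 was higher and Sox9 was not called. Klf5 (ENSMUSG00000005148, chromosome 14, 99298691 to 99315036) was at 164 and 152 CPM in overexpression libraries, against 129 and 113 CPM in WT libraries. The groups did not overlap, although each spread by more than 10 CPM. Its log2 fold change was 0.37 ± 0.08 (edgeR adjusted p = 0.0262), lost without WT replicate 2 (adjusted p = 0.148). Sox9 (ENSMUSG00000000567, chromosome 11, 112782224 to 112787760) was at 302 and 288 CPM in overexpression libraries and at 289 and 277 CPM in WT libraries, so the groups overlapped. The log2 fold change was 0.04 ± 0.06 (adjusted p = 0.805).

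The surface markers differed little. Prom1 (chromosome 5) was at 266 and 267 CPM in overexpression libraries, against 286 and 303 CPM in WT libraries, a log2 fold change of -0.16 ± 0.07 (edgeR adjusted p = 0.234). Cd44 (chromosome 2), the receptor for hyaluronan, was at 741 and 716 CPM in overexpression libraries, against 691 and 695 CPM in WT libraries (0.05 ± 0.06, adjusted p = 0.738). Cd24a (chromosome 10) was at 289.9 and 310.2 CPM in overexpression libraries and at 333 and 308 CPM in WT libraries (-0.11 ± 0.07, adjusted p = 0.444). Prom1 lay lower and Cd44 higher in both overexpression libraries without passing the test, and Cd24a overlapped between the groups. Among the 10 markers the groups did not overlap for 8, a share to be read against 48% of all genes tested. Aldh1a1 (chromosome 19) was at 42.0 and 44.8 CPM in overexpression libraries, against 39.6 and 40.6 CPM in WT libraries (0.10 ± 0.11, adjusted p = 0.733). Dclk1 (chromosome 3) was at 23.6 and 27.1 CPM in overexpression libraries, against 28.0 and 31.8 CPM in WT libraries (-0.26 ± 0.14, adjusted p = 0.403). Neither of these passed the test. All 10 markers, called or not, kept their sign in all 9 alternatives, which reuse the same libraries.

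Cxcr4 (ENSMUSG00000045382, chromosome 1, 128588199 to 128592293) changed most of the 10. It was at 9.19 and 11.0 CPM in overexpression libraries (168 and 198 counts), against 1.71 and 1.94 CPM in WT libraries (31 and 30 counts). The groups were far apart, and the log2 fold change was 2.45 ± 0.31 (edgeR adjusted p = 0.000840), past the threshold in all 9 alternatives. Cxcr4 is also a common receptor of leukocytes, whose genes were higher in the same libraries. All 10 pan-leukocyte markers were higher, with log2 fold changes from 1.54 to 3.69, and their summed level was 95.5 and 96.2 CPM in overexpression libraries, against 24.4 and 20.1 CPM in WT libraries. None of these 10 was at 0 in either group. Ptprc, the CD45 gene that defines leukocytes, was at 10.7 and 10.3 CPM in overexpression libraries, against 1.82 and 1.55 CPM in WT libraries. Macrophage markers (7 of 10 higher, summed 353 and 358 CPM in overexpression, against 170.5 and 161 CPM in WT), neutrophil markers (6 of 8 tested higher) and B and plasma cell markers (2 of 5 tested higher) moved the same way. Of the B cell markers, Ms4a1 was at 0 in both WT libraries, and Elane, a neutrophil gene, was at 0 in both overexpression libraries. With the markers of other cell types and the antigen receptor segments left out of the fit, Cxcr4 had a log2 fold change of 2.45 (adjusted p = 0.00125). That fit leaves out other genes only, so any leukocyte RNA in the Cxcr4 counts themselves stays in. The part of leukocyte RNA in the Cxcr4 result was not tested.

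**Figure D2:**
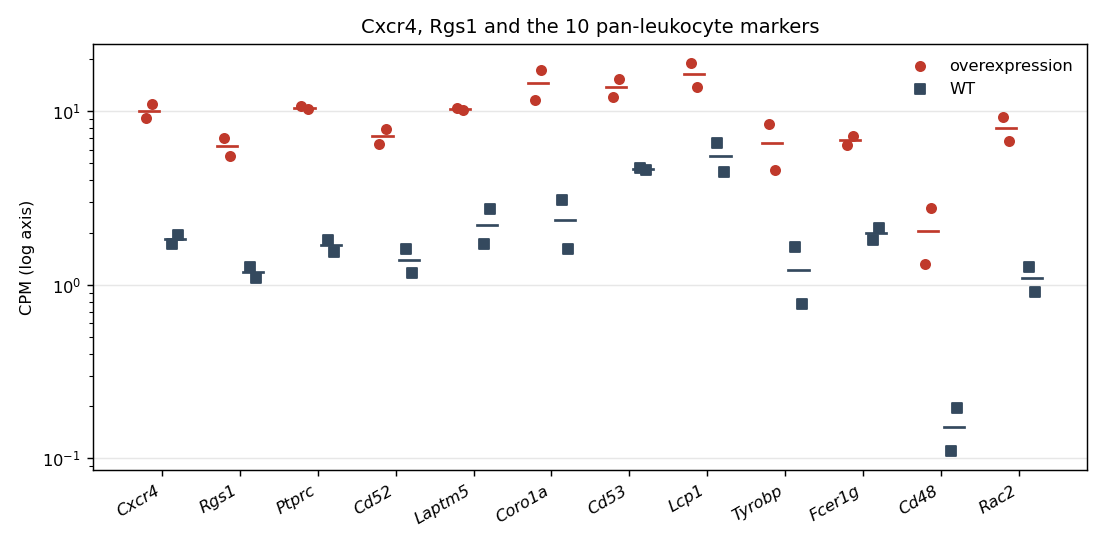
CPM (log axis) of Cxcr4, of Rgs1 and of the 10 pan-leukocyte markers in 2 overexpression libraries (circles) and 2 WT libraries (squares), with bars at the group means. For each of the 12 genes both overexpression libraries lie above both WT libraries, beside 26.3% of all genes tested.

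Most partner genes of the markers stayed below the threshold, where 4.16% of all genes tested were called. Lists of this size with none called are close to that share. In the list of R-spondins, Wnt receptors and their targets, 0 of 21 tested genes were called with edgeR, and the list median log2 fold change was 0.02. Rnf43 was at 30.2 and 27.3 CPM in overexpression libraries and at 32.1 and 31.7 CPM in WT libraries (log2 fold change -0.17 ± 0.13, adjusted p = 0.564). Axin2, a common Wnt target and one of that list, was at 41.7 and 45.8 CPM in overexpression libraries, against 29.9 and 33.9 CPM in WT libraries (0.44 ± 0.12, adjusted p = 0.0805). These 2 were picked for naming with their values known, and neither passed the test. None of 17 tested genes of the list of hyaluronan enzymes, Cd44 partners and splicing regulators was called. None of 7 tested tuft cell genes was called. Of the list of 16, 9 were too low to be tested. Among these was Gnat3, a taste G protein of tuft cells, with no read in any of these 4 libraries.

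A few partner genes were called. In the Cxcr4 list of 12, Rgs1, a regulator of G protein signalling in leukocytes, was at 6.998 and 5.56 CPM in overexpression libraries, against 1.27 and 1.10 CPM in WT libraries (edgeR adjusted p = 0.00589), beside the same rise of pan-leukocyte markers. Grk2, a kinase that desensitises receptors, was at 96.6 and 87.6 CPM in overexpression libraries, against 115 and 114 CPM in WT libraries (adjusted p = 0.0410), lost without overexpression replicate 2 (0.102), WT replicate 1 (0.0812) or WT replicate 2 (0.113) and with library totals in place of TMM factors (0.0503). Rgs1 was thus higher and Grk2 lower, and Cxcl12 itself was not called, at 11.4 and 16.7 CPM in overexpression libraries and 18.2 and 19.9 CPM in WT libraries. Among 11 tested Kruppel-like factors besides Klf5, 1 was higher and 1 lower. Klf13 was at 129 and 126 CPM in overexpression libraries, against 99.1 and 94.6 CPM in WT libraries (adjusted p = 0.0140, and 0.0518 without WT replicate 2). Klf15 was at 0.929 and 0.50 CPM in overexpression libraries, against 3.59 and 3.95 CPM in WT libraries (adjusted p = 0.0325, and 0.154 or 0.250 without WT replicate 1 or 2).

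In the list of duct and progenitor transcription factors, 2 of 16 tested genes were higher and 1 was lower. Hes1, a Notch target, was at 208 and 193 CPM in overexpression libraries, against 131 and 143 CPM in WT libraries (log2 fold change 0.53 ± 0.08, edgeR adjusted p = 0.00236). Elf3, an epithelial factor, was at 491 and 503 CPM in overexpression libraries, against 398 and 414 CPM in WT libraries (0.27 ± 0.06, adjusted p = 0.0357), lost without overexpression replicate 1 (0.0642), overexpression replicate 2 (0.132) or WT replicate 1 (0.0570). Nr5a2, a factor of acinar cells, was at 4.48 and 6.72 CPM in overexpression libraries, against 14.5 and 15.7 CPM in WT libraries (-1.45 ± 0.24, adjusted p = 0.00589). Acinar markers were lower in the same libraries, all 10 of them, with a summed level of 1382 and 1503 CPM in overexpression libraries, against 18469 and 19017 CPM in WT libraries. None of the acinar markers was at 0, and their part in the Nr5a2 result was not tested.

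Of 20 tested genes in a list of other stem and progenitor genes, 0 were higher and 1 was lower. That gene was Prom2, a relative of Prom1, with no counts in overexpression libraries and 22 and 25 counts in WT libraries. Against a floor of 3 counts over the overexpression group it was at least 16.9-fold lower in overexpression libraries (edgeR adjusted p = 0.0209), and the call was lost without WT replicate 1 (0.120) or WT replicate 2 (0.222). Myc, Klf4, Met, Itga6, Nes, Bmi1, Epcam and Lgr6 of that list were not called. In the retinoic acid list, 0 of 15 tested genes were higher and 1, the retinol transporter gene Stra6, was lower, at 28.5 and 30.9 CPM in overexpression libraries and 38.7 and 50.6 CPM in WT libraries (adjusted p = 0.0417). Stra6 lost its call without WT replicate 2 (0.440) and without the markers of other cell types (0.0508). Beside these lower values stand markers of normal pancreas and vessels, lower in the same libraries and with none at 0. All 10 islet markers were lower, summing to 621 and 673 CPM in overexpression libraries, against 1445 and 1283 CPM in WT libraries. Of 10 endothelial markers 6 were lower, summing to 408 and 429 CPM in overexpression libraries, against 576 and 554 CPM in WT libraries. The part of acinar, islet and endothelial RNA in the Prom2, Klf15, Stra6 and Grk2 values was not tested.

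The second comparison asked which markers differed between cells sorted for high and for low Ly6d. Dclk1 and Aldh1a1 were higher in Ly6d-high cells, by 2.22-fold and 1.67-fold in mean TPM. Sox9, Cd24a and Prom1 also had higher values in both Ly6d-high libraries without passing the threshold. Lgr4, Klf5 and Cd44 did not pass either, and their sign turned with the scaling. With limma on log2(TPM + 1) and an adjusted p under 0.05, 2 of the 9 tested markers were called higher and 0 lower. Of the 14625 genes tested, 8.64% were called higher and 1.17% lower, 9.81% in all. Counts called in the lists of this comparison are to be read against these shares. Cxcr4 was too low to be tested. At an unadjusted p under 0.05, 4 of the 9 were higher and 0 lower, where 27.0% of genes were higher and 3.72% lower. On recovered reads edgeR gave 2 markers called higher and 1 lower, where 8.01% of genes were called higher and 3.87% lower, 11.9% in all. With TMM factors on the TPM 1 was called higher and 0 lower, where 4.62% of genes were called higher and 1.70% lower, 6.32% in all.

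Most genes shifted upward in this table, so the scaling bears on each value. The median difference over all genes tested was 0.25 on the log2(TPM + 1) scale, and it was -0.0042 when TMM factors were applied to the TPM. The median of the 9 tested markers was 0.35, or 0.11 relative to all genes, and 0.06 with TMM factors. The groups did not overlap for 7 of the 9, a share to be read against 64.8% of all genes tested, of which 54.4% lay higher and 10.4% lower in Ly6d-high libraries.

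**Figure D3:**
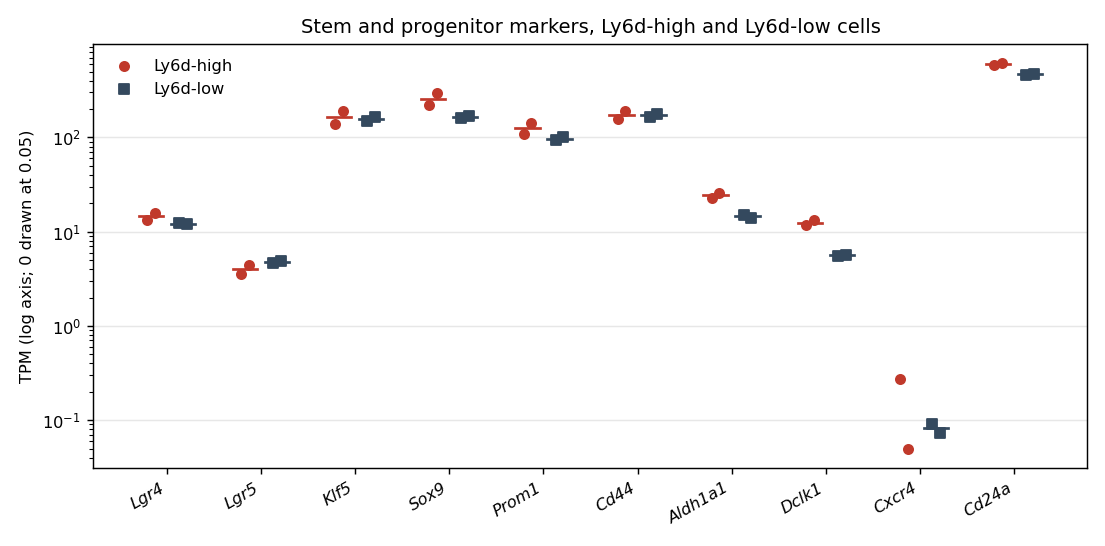
TPM of the 10 markers (log axis, with a value of 0 drawn at 0.05) in each of 2 Ly6d-high libraries (circles) and 2 Ly6d-low libraries (squares), with bars at the group means where no value is 0. Dclk1 shows the widest gap among the tested markers, and Cxcr4 lies near 0 in both groups.

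Dclk1 had the largest difference among the 9 tested markers. It was at 11.8 and 13.1 TPM in Ly6d-high libraries (1445 and 1336 recovered reads), against 5.54 and 5.67 TPM in Ly6d-low libraries (512 and 663 recovered reads). Both Ly6d-high libraries lay above both Ly6d-low libraries. On the log2(TPM + 1) scale Dclk1 differed by 1.02 ± 0.17 (SE), with an adjusted p of 0.0113 from limma, or by 0.78 relative to the median of all genes. With TMM factors it was 0.77 (adjusted p = 0.0249), and on recovered reads 0.86 with edgeR (adjusted p = 0.00279). It lost its call without Ly6d-low replicate 1 (adjusted p = 0.108) or 2 (0.0810) and with no filter on low values (0.0605). Dclk1 also marks tuft cells, and the part of tuft cell RNA in its value was not tested. Genes of the tuft cell list differed in level. Gnat3 had no reads in these 4 libraries, and Pou2f3 had 0 and 7 reads in Ly6d-high libraries and none in Ly6d-low libraries. Trpm5, the tuft cell cation channel, was at 0.604 and 1.29 TPM in Ly6d-high libraries, against 1.81 and 1.49 TPM in Ly6d-low libraries (difference -0.47 ± 0.26, adjusted p = 0.264). Of 16 tuft cell genes, 5 were tested, with a median difference of -0.30 against 0.25 over all genes, and 2 were higher. These were the cyclooxygenase gene Ptgs1, at 12.9 and 14.5 TPM in Ly6d-high libraries and 4.26 and 4.72 TPM in Ly6d-low libraries (limma adjusted p = 0.00294), and the receptor gene Il17rb, at 1.14 and 1.22 TPM in Ly6d-high libraries and 0.0446 and 0.0706 TPM in Ly6d-low libraries (adjusted p = 0.0411). Il17rb lost its call without Ly6d-low replicate 1 (0.107) or 2 (0.0738), with TMM factors (0.0676) and with a pseudocount of 0.1 (0.0527).

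Aldh1a1 was at 22.7 and 25.9 TPM in Ly6d-high libraries, against 15.1 and 14.0 TPM in Ly6d-low libraries. The groups were apart, with a difference of 0.70 ± 0.16 on the log2(TPM + 1) scale (limma adjusted p = 0.0378). The call was lost with TMM factors, where the difference was 0.42 (adjusted p = 0.0847), with DESeq2 on recovered reads (0.115), with no filter (0.0970) and without Ly6d-low replicate 1 (0.352) or 2 (0.394). Aldh1a7, whose gene product is a close relative of Aldh1a1 in the mouse, was at 9.17 and 11.4 TPM in Ly6d-high libraries, against 11.8 and 12.4 TPM in Ly6d-low libraries. That difference was -0.22 ± 0.18 (adjusted p = 0.415), and reads shared by both genes could be split between them. Of 15 tested genes in the retinoic acid list, 2 were higher and 0 lower. Aldh1b1, a mitochondrial aldehyde dehydrogenase, was at 5.37 and 6.74 TPM in Ly6d-high libraries, against 2.38 and 2.56 TPM in Ly6d-low libraries (adjusted p = 0.0223), lost with DESeq2 on recovered reads (0.0910) and without Ly6d-low replicate 1 (0.147) or 2 (0.0822). Crabp2, a carrier of retinoic acid, was at 70.8 and 62.1 TPM in Ly6d-high libraries, against 45.4 and 42.6 TPM in Ly6d-low libraries (adjusted p = 0.0482), lost with TMM factors (0.300), on recovered reads with edgeR (0.240) or DESeq2 (0.437), with a pseudocount of 0.1 (0.0545) and without Ly6d-low replicate 1 (0.452) or 2 (0.464). Aldh1a3, another retinaldehyde dehydrogenase gene and picked with its values known, was at 163 and 192 TPM in Ly6d-high libraries, against 211 and 221 TPM in Ly6d-low libraries (-0.29 ± 0.13, adjusted p = 0.181).

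Sox9 came close to the threshold. It was at 219.9 and 293 TPM in Ly6d-high libraries, against 162 and 171 TPM in Ly6d-low libraries. The groups did not overlap, but the Ly6d-high libraries differed by more from each other than the Ly6d-low libraries did. Its difference of 0.61 ± 0.16 on the log2(TPM + 1) scale missed the threshold (limma adjusted p = 0.0558). It was 0.81 and 0.40 without Ly6d-high replicate 1 or 2, and 0.57 and 0.65 without Ly6d-low replicate 1 or 2. With TMM factors it was 0.32 (limma adjusted p = 0.148). On recovered reads it was 0.32 with edgeR (adjusted p = 0.0876) and 0.31 with DESeq2 (adjusted p = 0.190). Klf5 was at 138 and 193 TPM in Ly6d-high libraries, on either side of the 149 and 163 TPM in Ly6d-low libraries. Its difference was 0.07 ± 0.17 (adjusted p = 0.803) and turned to -0.22 with TMM factors. Without Ly6d-high replicate 1 it was 0.31, and without Ly6d-high replicate 2 it was -0.17.

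Several other duct and progenitor transcription factors were higher in Ly6d-high cells. Of 17 tested, 7 were higher and 0 lower in Ly6d-high cells with limma, where 8.64% of all genes were called higher and 1.17% lower. With TMM factors 6 were higher and 0 lower, where 4.62% of all genes were called higher and 1.70% lower. The list median was 0.46, or 0.21 relative to all genes. Onecut1, a factor of the developing duct, was at 8.91 and 11.8 TPM in Ly6d-high libraries, against 0.241 and 0.477 TPM in Ly6d-low libraries (3.05 ± 0.23, adjusted p = 0.000316). Nkx6-1, a factor of progenitors and beta cells, was at 2.90 and 2.35 TPM in Ly6d-high libraries, against 0.158 and 0.0417 TPM in Ly6d-low libraries, where it rested on 3 and 1 recovered reads (1.72 ± 0.24, adjusted p = 0.00515). Onecut1 and Nkx6-1 passed the filter on low values through their Ly6d-high libraries only, the group where they were high. Among the others called were Gata6, Ptf1a, Nr5a2 and Sox4, with differences of 1.17, 1.54, 1.51 and 0.74. Acinar and islet markers, whose cells also express some of these factors, moved in opposite directions. Of 10 acinar markers 8 were higher (4 with TMM factors, 6 with edgeR on recovered reads), with summed levels of 13668 and 12074 TPM in Ly6d-high libraries, against 5296 and 5308 TPM in Ly6d-low libraries. Of 9 tested islet markers 4 were lower, with 411 and 362 TPM in Ly6d-high libraries, against 769 and 726 TPM in Ly6d-low libraries over all 10. No marker of either list was at 0, and their part in the transcription factor values was not tested.

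**Figure D4:**
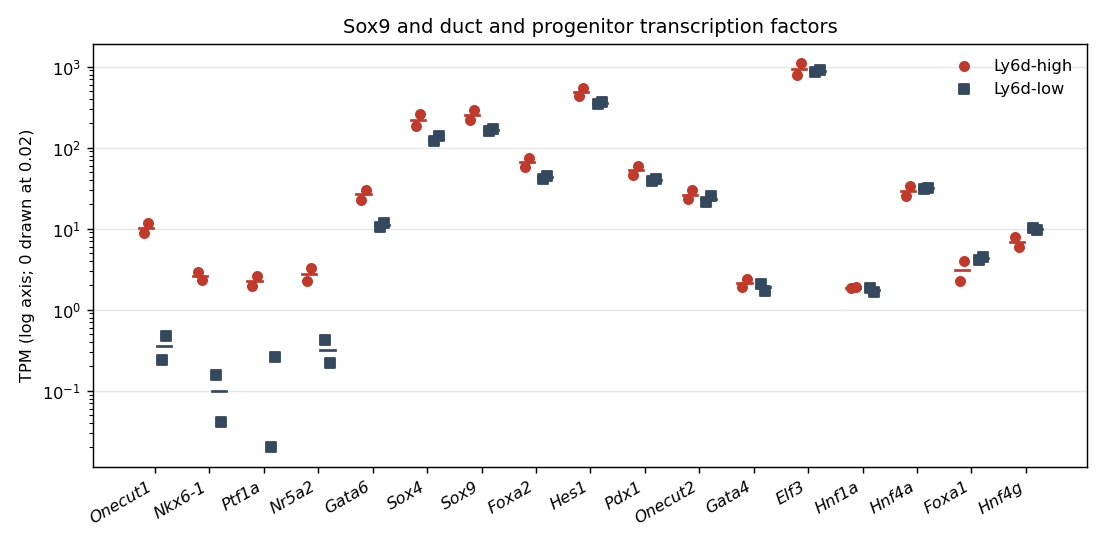
TPM (log axis, with a value of 0 drawn at 0.02) of Sox9 and 16 duct and progenitor transcription factors in 2 Ly6d-high libraries (circles) and 2 Ly6d-low libraries (squares), ordered by their difference, with bars at the group means where no value is 0. The gap is widest for Onecut1, at 8.91 and 11.8 TPM in Ly6d-high against 0.241 and 0.477 TPM in Ly6d-low libraries.

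Neither R-spondin receptor was called here. Lgr4 was at 13.2 and 15.9 TPM in Ly6d-high libraries, against 12.3 and 11.99 TPM in Ly6d-low libraries, a difference of 0.23 ± 0.17 (limma adjusted p = 0.372) that turned to -0.036 with TMM factors. The Lgr4 difference was 0.36 and 0.11 without Ly6d-high replicate 1 or 2, and 0.25 and 0.21 without Ly6d-low replicate 1 or 2. Lgr5 was at 3.56 and 4.38 TPM in Ly6d-high libraries, against 4.69 and 4.88 TPM in Ly6d-low libraries. Both Ly6d-high libraries were thus the lower ones. The difference was -0.22 ± 0.19 (adjusted p = 0.445), and with edgeR on recovered reads it was -0.57 and passed (adjusted p = 0.0283). It missed the threshold with DESeq2 on recovered reads (-0.58, adjusted p = 0.0543) and with limma and TMM factors (-0.46, adjusted p = 0.0958). Of 12 alternatives, 1 passed. The comparisons come from tables normalized separately, and whether the effect on Lgr5 differs between them was not tested. In the list of R-spondins, Wnt receptors and targets, 3 of 20 tested genes were higher in Ly6d-high cells. Tnfrsf19, a Wnt target also called Troy, was at 9.69 and 12.1 TPM in Ly6d-high libraries, against 1.36 and 1.30 TPM in Ly6d-low libraries (2.35 ± 0.20, adjusted p = 0.000556). Sp5, a Wnt target, rested on 26 and 29 recovered reads in Ly6d-high libraries, against 1 and 1 in Ly6d-low libraries (adjusted p = 0.0151). Fzd9, a Wnt receptor, rested on 34 and 59 reads in Ly6d-high libraries, against 5 and 2 in Ly6d-low libraries (adjusted p = 0.0223, and 0.0584 with TMM factors). Axin2 was below the filter, at 16 and 26 reads in Ly6d-high libraries and 15 and 21 reads in Ly6d-low libraries.

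Among the surface markers, none was called. Cd24a was at 591 and 612 TPM in Ly6d-high libraries, against 463 and 467 TPM in Ly6d-low libraries, a difference of 0.37 ± 0.10 on the log2(TPM + 1) scale (limma adjusted p = 0.0600) and of 0.08 with TMM factors. The Cd24a difference was 0.40 and 0.35 without Ly6d-high replicate 1 or 2, and 0.36 and 0.38 without Ly6d-low replicate 1 or 2. On recovered reads it was 0.08 with edgeR (adjusted p = 0.631). Prom1 was at 109 and 141 TPM in Ly6d-high libraries, against 93.8 and 100.04 TPM in Ly6d-low libraries (0.35 ± 0.16, limma adjusted p = 0.177). Its difference was 0.53 and 0.17 without Ly6d-high replicate 1 or 2, and 0.31 and 0.40 without Ly6d-low replicate 1 or 2. With TMM factors it was 0.06 (adjusted p = 0.697). Cd24a and Prom1 lay higher in both Ly6d-high libraries without passing the test, where 54.4% of all genes tested lay higher. Relative to the median of all genes they differed by 0.12 and 0.11. Cd44 was at 155 and 192 TPM in Ly6d-high libraries, around the 166 and 179 TPM of Ly6d-low libraries (0.0044 ± 0.14, adjusted p = 0.985), and at -0.28 with TMM factors (adjusted p = 0.135). Of 15 tested genes in the Cd44 list, 2 were higher: Cd74, a Cd44 partner and the invariant chain, and Rdx, a linker of membrane and actin. Cd74 was at 4314 and 4766 TPM in Ly6d-high libraries, against 1696 and 1779 TPM in Ly6d-low libraries (adjusted p = 0.000160). Macrophage markers, which come with Cd74, summed to 876 and 927 TPM in Ly6d-high libraries, against 289 and 289.9 TPM in Ly6d-low libraries, with 6 of 9 tested higher, none at 0, and a part in the Cd74 value that was not tested. Rdx was at 35.4 and 37.0 TPM in Ly6d-high libraries, against 21.7 and 23.1 TPM in Ly6d-low libraries (adjusted p = 0.0322), lost with TMM factors (0.0945), on recovered reads with edgeR (0.0589) or DESeq2 (0.141), and without Ly6d-low replicate 1 (0.504) or 2 (0.311).

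Cxcr4 was close to undetected in this table, with 4 and 0 recovered reads in Ly6d-high libraries and 1 and 1 in Ly6d-low libraries. No difference was detectable at this depth. Ptprc had 12 and 21 reads in Ly6d-high libraries and 7 and 6 in Ly6d-low libraries, too few to be tested. Of 8 tested pan-leukocyte markers 4 were higher, and all 10 summed to 49.4 and 45.4 TPM in Ly6d-high libraries, against 20.5 and 20.7 TPM in Ly6d-low libraries. Of 5 tested B and plasma cell markers 3 were higher, and the list summed to 97.5 and 85.0 TPM in Ly6d-high libraries, against 7.01 and 6.07 TPM in Ly6d-low libraries, with Ms4a1 at 0 in Ly6d-high and Mzb1 at 0 in Ly6d-low libraries. The ligand gene of Cxcr4, Cxcl12, was at 3.37 and 4.49 TPM in Ly6d-high libraries, against 1.05 and 1.2005 TPM in Ly6d-low libraries (1.204 ± 0.22, limma adjusted p = 0.0174). Rgs2, a regulator of G protein signalling in the same list, was at 49.3 and 41.3 TPM in Ly6d-high libraries, against 3.51 and 2.74 TPM in Ly6d-low libraries (3.49 ± 0.18, adjusted p = 7.67e-05). The part of leukocyte RNA in the Cxcl12 and Rgs2 values was not tested. Fibroblasts are a usual source of Cxcl12. Of 9 tested fibroblast markers 0 were called, and all 9 differences were above 0, with a median of 0.29 against 0.25 over all genes. All 10 fibroblast markers summed to 409.9 and 493 TPM in Ly6d-high libraries and to 396 and 404 TPM in Ly6d-low libraries. The part of fibroblast RNA in the Cxcl12 value was not tested.

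**Figure D5:**
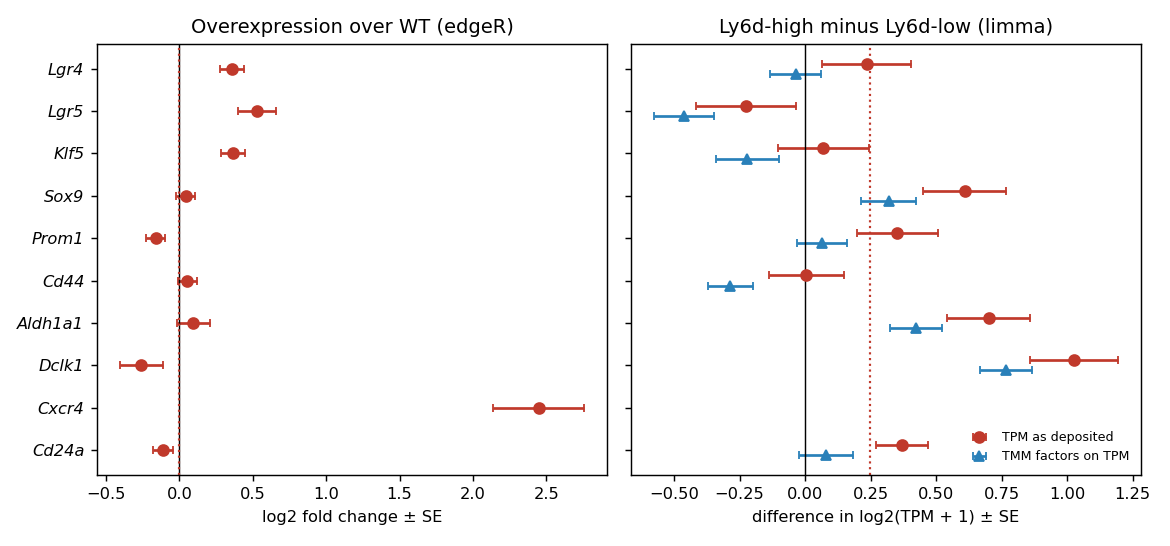
Left, log2 fold change of overexpression over WT with its SE for the 10 markers. Right, difference in log2(TPM + 1) of Ly6d-high minus Ly6d-low with its SE for the 9 tested markers, from TPM as deposited (circles) and with TMM factors (triangles). Dotted lines mark the median over all genes tested, -0.0012 on the left and 0.25 on the right, and TMM factors move each marker on the right downward.

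Some Kruppel-like factors and other stem cell genes were called in Ly6d-high cells, where 9.81% of all genes tested were called. Among 11 tested Kruppel-like factors besides Klf5, 2 were higher. Klf13 was at 59.8 and 84.3 TPM in Ly6d-high libraries, against 35.1 and 39.7 TPM in Ly6d-low libraries (limma adjusted p = 0.0293, lost with TMM factors at 0.0658 and without Ly6d-low replicate 1 at 0.171). Klf15 was at 3.26 and 4.31 TPM in Ly6d-high libraries, against 0.237 and 0.375 TPM in Ly6d-low libraries (adjusted p = 0.00333). Of 18 tested genes in the list of other stem and progenitor genes, 1 was higher and 1 lower. The lower one was Tspan8, a tetraspanin of tumour epithelium, at 867 and 725 TPM in Ly6d-high libraries, against 1171 and 1122 TPM in Ly6d-low libraries (-0.53 ± 0.11, adjusted p = 0.0322), lost with TMM factors (0.0797) and without Ly6d-low replicate 1 (0.350) or 2 (0.191). With no filter on low values, limma's adjusted p also missed the threshold for Cxcl12 (0.105), Fzd9 (0.115), Aldh1b1 (0.117), Klf13 (0.122), Crabp2 (0.106), Rdx (0.0727), Tspan8 (0.149) and Il17rb (0.0502).

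Levels were compared between markers per length, as CPM per kilobase in the overexpression and WT libraries and as deposited TPM in the sorted high and low libraries. In all 4 groups Cd24a ranked first among the 10. In overexpression libraries it averaged 116 ± 5.57 CPM per kilobase, followed by Cd44 at 108 ± 2.56 and Sox9 at 71.4 ± 2.42 (SD, n = 2). In WT libraries Cd24a averaged 124 ± 6.61, Cd44 102 ± 0.396 and Sox9 68.5 ± 2.05 CPM per kilobase. Prom1, Klf5, Lgr4 and Aldh1a1 came next in that order in both groups, from 37.2 to 8.79 CPM per kilobase in overexpression and from 41.0 to 8.13 in WT libraries. Cxcr4 was eighth, ahead of Lgr5 and Dclk1, in overexpression libraries at 5.58 ± 0.709 CPM per kilobase, and last in WT libraries at 1.01 ± 0.0899. No neighbours in either order had libraries that overlapped.

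In the sorted high and low libraries Cd24a stood further above the next marker, and the ranks after it overlapped in part. It averaged 601 ± 14.9 TPM in Ly6d-high and 465 ± 3.07 TPM in Ly6d-low libraries. In Ly6d-high libraries Sox9 came second at 256 ± 51.4 TPM, and Cd44, Klf5 and Prom1 followed, with overlap of Cd44 with Klf5 and of Klf5 with Prom1. In Ly6d-low libraries Cd44, Sox9 and Klf5 averaged 172 ± 8.83, 166 ± 6.34 and 156 ± 9.81 TPM and overlapped as neighbours. Aldh1a1, Lgr4, Dclk1, Lgr5 and Cxcr4 formed the lower ranks in that order in both groups. Among all genes Cd24a ranked 218th in Ly6d-high and 293rd in Ly6d-low libraries, while Lgr5 ranked 10698th and 9192nd in the same groups. Genes overlapping 5 of the markers on the genome were at most at 0.520 CPM or 1.65 TPM on average. How reads in shared stretches were assigned is not given, so their part in the marker values was not tested.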

How the data were processed

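Raw counts per gene were deposited for overexpression and WT libraries. For cells sorted by Ly6d the authors deposited TPM, which follow from the listed gene lengths. Other deposited columns describe the gene, such as its length. Per the submitters' processing notes, fastp, HISAT2, featureCounts and DESeq2 were used, without versions, and the build is named mm9. Of the 54409 genes found in GENCODE M21, 98.3% had the coordinates of GRCm38, which is the build given here. The sources used here do not say whether counting used strand. The table has 2 more columns of counts, left out because no label names them, and tumour tissue samples were not analysed here.

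The main test of counts was edgeR 4.0.16 under R 4.3.3 (filterByExpr, TMM, glmQLFit, glmQLFTest), with the SE taken as the fold change over the square root of F. TPM were tested with limma 3.58.1 (trend) on log2(TPM + 1), that is, with a pseudocount of 1. Genes entered when 2 or more of the 4 libraries reached 1 TPM. Onecut1, Nkx6-1, Klf15, Sp5, Fzd9 and Il17rb reached it in Ly6d-high libraries only, so the filter admitted them through that group. The log2(TPM + 1) scale understates changes of low genes. p-values were adjusted by Benjamini-Hochberg over all genes tested, with a threshold of 0.05, and the procedures were tested on simulated data. Reads were recovered from TPM times length: 100% of 85643 values above 0 were whole within 0.1 reads. Levels between genes were to be given as TPM in both tables, but Gm23935, of 57 bases, took 30.1% of the per-length total in WT replicate 2 and 2.45% to 3.45% in the other 3 count libraries, so CPM per kilobase was used. Replicates differed by more than sampling noise in every group, with chi-square per degree of freedom from 3.46 to 26.9.

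Named genes were the 10 markers, Ly6d and, from each of 8 pathway lists, up to 3 called genes with the lowest p. The markers and lists were chosen with earlier results of these data known, and any other gene was picked with its values known. Alternatives were DESeq2 1.42.0, other scalings, filters and pseudocounts, recovered reads, removal of markers of other cell types, a replicate block and leaving out each library. Motifs were searched on both strands of RefSeq promoter windows. Values of a few list genes are not reported here.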

Additional observations from a re-analysis of the deposited data

How the results depend on the processing

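With 2 libraries a group, calls near the threshold moved with single libraries. Of the markers, 4 were called higher with overexpression, and 1 to 4 when 1 library was left out, 0 being lower throughout. Over all genes, 366 higher and 290 lower calls became 608 and 579 with no filter, 232 higher without markers of other cell types, 327 to 694 higher and 238 to 890 lower with a library left out. Pathway list genes, 4 higher and 5 lower, became 8 and 12 with no filter, 8 lower with DESeq2, and 4 to 6 higher and 2 to 11 lower with a library left out.

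Between Ly6d-high and Ly6d-low, 2 markers were called higher, 0 with no filter, 1 with TMM factors or DESeq2, and 0 to 7 with a library left out, and 1 was called lower with edgeR on recovered reads. Over all genes, 1264 higher and 171 lower became 485 and 46 with no filter, 676 higher with TMM factors (249 lower), 591 and 632 lower with edgeR and DESeq2 on recovered reads (1224 and 1074 higher), 833 to 5599 higher and 98 to 1111 lower with a library left out. Pathway list genes, 21 higher and 1 lower, became 9 and 0 with no filter, 2 lower with TMM factors, 8 and 9 lower with edgeR and DESeq2, and 15 to 54 higher and 0 to 7 lower with a library left out. Signs turned for 3 uncalled markers: with TMM factors, edgeR and DESeq2, Lgr4 was at -0.036, -0.042 and -0.054, Klf5 at -0.22, -0.22 and -0.23 and Cd44 at -0.28, -0.29 and -0.30. With 1 library left out, Klf5 lay between -0.17 (without Ly6d-high replicate 2) and 0.31, and Cd44 between -0.15 (likewise) and 0.16, with -0.048 without Ly6d-low replicate 1. The cause was not tested, beyond the scaling itself for the first of these.

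Replicate numbers are shared between Ly6d-high and Ly6d-low, but nothing says that they mark a shared tumour, and deviations of the same number correlated at 0.07. With the replicate block, 3581 of the 14625 genes tested were higher and 598 lower, against 1264 and 171 without it. Beside this rise over all genes, 4 markers were higher (Sox9 and Cd24a added), and 38 pathway list genes were higher and 2 lower. No paired analysis was possible for overexpression because its columns carry no number of a single sample.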
